A study of Homo sapiens with 18 samples.

Results

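The ATF4 stress response genes are 10 genes picked by symbol from a table of 58302: ATF4, ATF3, DDIT3, TRIB3, CHAC1, ASNS, PSAT1, PHGDH, SLC7A11 and DDIT4. Their transcripts were followed by RNA-seq in human thyroid cancer cells that had lost part of their Dicer1. TPC1 is a papillary thyroid carcinoma cell line, and D11 is a Dicer1 (+/-) clone made from it by CRISPR-Cas9. Each line was left non-transfected (NT) or received 5 nM of siRNA, either a negative control (NC) or one against Dicer1 (siDicer), with RNA taken on day 4. This gave 6 groups of 3 libraries, 18 in all. D11 is 1 clone, so an effect of the lost allele and a feature of that clone cannot be told apart. The siDicer groups are knockdowns and kept some DICER1 transcript. The question behind the design was what a partial and a stronger loss of Dicer1 do to these cells.

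ATF4 is the transcription factor at the end of the integrated stress response. When kinases that sense unfolded proteins, amino acid shortage, viral RNA or haem deficiency phosphorylate eIF2, bulk translation falls, while the ATF4 message is translated more. ATF4 protein then dimerises with C/EBP factors and raises genes for amino acid synthesis and uptake, for redox defence and, under lasting stress, for growth arrest and death. Much of the control of ATF4 is therefore on its translation, which RNA-seq does not measure. Dicer1 is the ribonuclease that cuts microRNA precursors into mature microRNAs.

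ATF4 dimers bind composite C/EBP-ATF sites, whose core can be written TGATGNAA, and the sites found near the members' starts are shown for that reason. The 250 bases upstream of each RefSeq start (GRCh38.p14) were searched on both strands for this core, for the cyclic AMP response element TGACGTCA, and for TGACNNNGC, the core of the element bound by NRF2. Windows existed for 9 members, and SLC7A11 had no entry. The composite core lay upstream of 3 of the 9 (ATF3, ASNS and CHAC1), against 3.14% of all 35116 windows and 3.89% of 27305 genes with a window. Neither of the other motifs lay upstream of a member. They occurred in 1.65% and 10.9% of all windows. The 3 sites follow with their flanks, 30 bases each, 5′ to 3′ on the strand of the gene, with the match in capitals. No match overlapped another motif.
ATF3: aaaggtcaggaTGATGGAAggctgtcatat
ASNS: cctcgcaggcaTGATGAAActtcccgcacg
CHAC1: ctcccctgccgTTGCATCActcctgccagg
The ATF3 stretch is chr1:212565205-212565234 on the plus strand. The match lay 191 to 184 bases before a RefSeq start and 111 bases outside the GENCODE gene model. The window of another ATF3 start, chr1:212614768-212615017, held no match. The ASNS stretch is chr7:97872458-97872487 on the minus strand, with the match 68 to 61 bases before a RefSeq start. The window of another ASNS start, chr7:97872166-97872415, held no match. The CHAC1 stretch is chr15:40953251-40953280 on the plus strand, 209 to 202 bases before the start, and its match reads on the opposite strand. For ASNS and CHAC1 the match fell within an exon of a longer GENCODE model. A match describes letters and was not tested as a binding site.

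Values below are normalised read counts per 20 M aligned reads, as the authors scaled them. The spacing of the low values put the depth of the libraries between 11.28 and 23.24 M reads, with a median of 15.88 M, so 1 read was worth 0.861 to 1.77 units. ATF3, the lowest member, was at 26 units or more in every library, above the 2.58 to 5.32 units that 3 reads are worth. All 10 members passed the filter on low values in every comparison. DICER1 checked the labels. In TPC1 it was at 1582, 1510 and 1397 in NT, at 2492, 1901 and 2366 in NC, and at 255, 395 and 246 in siDicer. In D11 it was at 655, 1157 and 923 in NT, at 1536, 1433 and 1407 in NC, and at 297, 451 and 277 in siDicer. The NC mean of DICER1 was 151% of the NT mean in TPC1 and 160% in D11. siDicer replicate 2 kept the most DICER1 in both lines, at 17.5% of the NC mean in TPC1 and 30.9% in D11, against 10.9 to 11.3% and 19.0 to 20.4% in the other replicates. Of the mean of all 6 control libraries, replicate 2 kept 21.1% in TPC1 and 38.1% in D11. The other replicates kept 13.1 to 13.6% and 23.4 to 25.1% of it. Of 8 thyroid follicular markers, 3 were detected in every library, PAX8 among them at 7361 to 14886 units, while NKX2-1 was at 0 throughout. Of 4 leukocyte and 2 endothelial markers, none was above the filter in all libraries. Of 6 epithelial markers 3 were detected in every library (KRT7, KRT8 and KRT18), and EPCAM, KRT19 and CDH1 were at 8 units or less. Of 3 fibroblast markers COL1A1 and PDGFRB were detected at 12 to 167 units, and DCN was at 0.

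The regulators are encoded at chr22:39519695-39522683 (ATF4), chr1:212565334-212620777 (ATF3), chr12:57516588-57521737 (DDIT3) and chr20:362835-397559 (TRIB3). The effectors are at chr15:40952962-40956512 (CHAC1), chr7:97851677-97872542 (ASNS), chr9:78297125-78330093 (PSAT1), chr1:119648411-119744218 (PHGDH), chr4:138164097-138242349 (SLC7A11) and chr10:72273919-72276036 (DDIT4), all in GRCh38. Values are per whole gene. On the scale of units per kilobase of exon, the mean over the 6 TPC1 control libraries (NT and NC) ran from 3161 for ATF4 through 2351 for PSAT1, 2203 for DDIT4, 674 for TRIB3, 491 for DDIT3, 208 for PHGDH, 165 for CHAC1, 158 for ASNS and 101 for SLC7A11 to 14.5 for ATF3. Neighbours in this order overlapped between libraries except DDIT4 with TRIB3 and SLC7A11 with ATF3. Exon length was the union over all annotated transcripts of a gene, from 1.307 kb for DDIT3 to 9.645 kb for SLC7A11 (9.187 kb for PHGDH). Genes with long models are therefore placed lower than by the length of 1 transcript. Overlapping genes limit 3 of the 10 members. AC079781.5, a gene on the same strand that spans ASNS, was at 97.2 to 105% of the ASNS value in the 18 libraries, so both hold largely the same reads. DDIT3 overlaps MARS1 and MBD6, and SLC7A11 overlaps SLC7A11-AS1, on the opposite strand, and it is not given whether strand was used in counting.

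**Figure D1:**
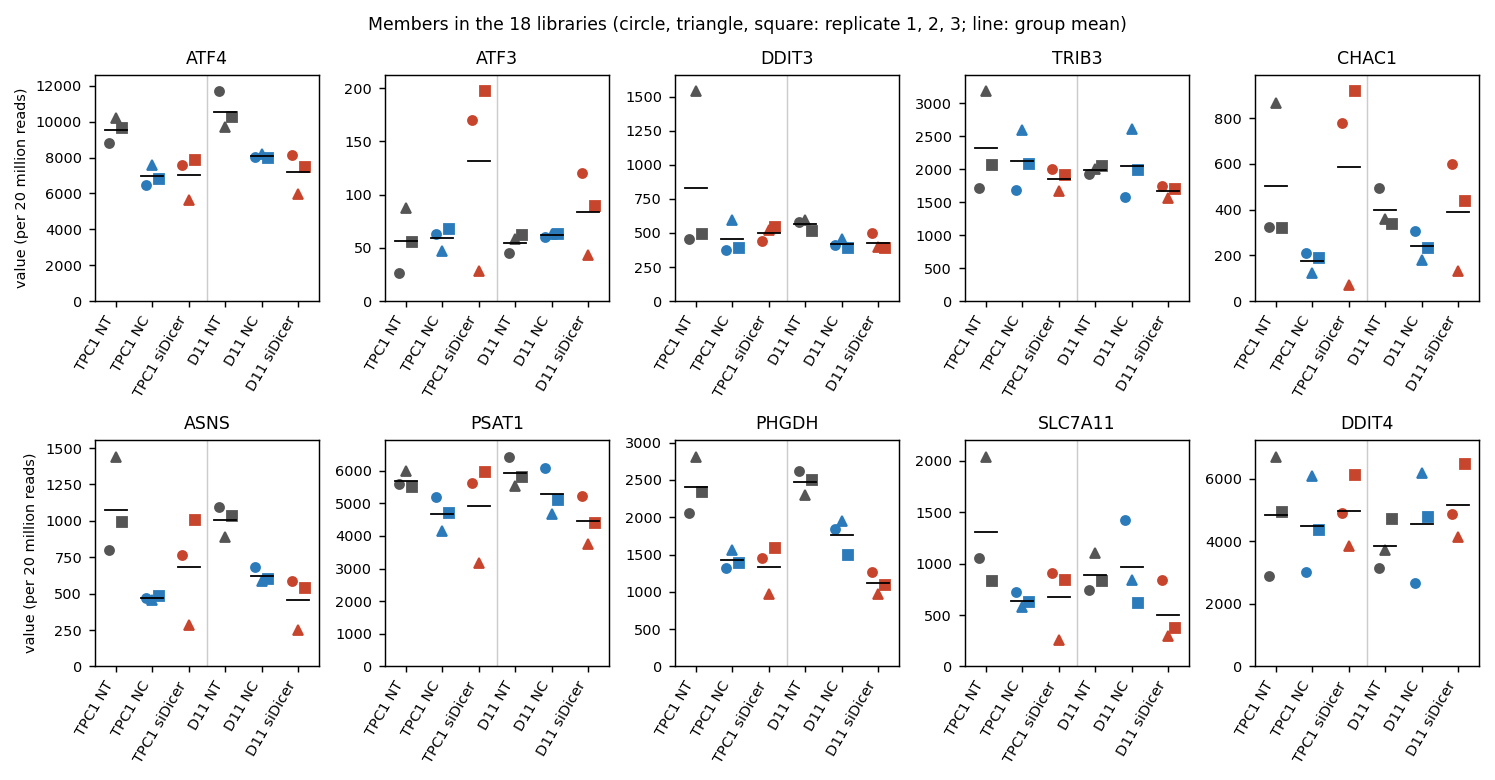
Normalised read counts per 20 M reads (vertical axes, from 0) of the 10 members in the 6 groups (horizontal axes), with 1 point per library and a line at the group mean. In both lines ATF4, CHAC1, ASNS and PHGDH were lower in every NC library than in every NT library. The triangle of siDicer replicate 2 was the lowest of the siDicer libraries in both lines for every member except DDIT3.

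Of the 6 libraries numbered 2, 3 stood apart for these genes. In TPC1, NT replicate 2 held the highest of the 9 values for 8 members: ATF4, DDIT3, TRIB3, ASNS, PSAT1, PHGDH, SLC7A11 and DDIT4. siDicer replicate 2 held the lowest for 7 members in TPC1 (ATF4, TRIB3, CHAC1, ASNS, PSAT1, PHGDH and SLC7A11) and for 8 in D11 (the same 7 and ATF3). Relative to the NC mean of the line, the median member of siDicer replicate 2 was at -0.55 on the log2 scale in TPC1 and -0.51 in D11. For siDicer replicates 1 and 3 it was 0.20 and 0.37 in TPC1, and -0.00 and -0.16 in D11. siDicer replicate 2 was therefore the library with the least knockdown and with the lowest members in both lines. The median member of NC replicate 2 was at 0.04 in TPC1 and 0.02 in D11. In both lines NC replicate 2 was the lowest NC library for CHAC1, ASNS and PSAT1. It was the highest for ATF4, DDIT3, TRIB3, PHGDH and DDIT4. Over all genes, replicates 1 and 3 were the closest pair in every TPC1 group, but in D11 only in NC. The parts of the knockdown and of the replicate number in the low values of siDicer replicate 2 were not tested. The counts of called members are given below with and without siDicer replicate 2, as are the changes of the members it moved most.

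**Figure D2:**
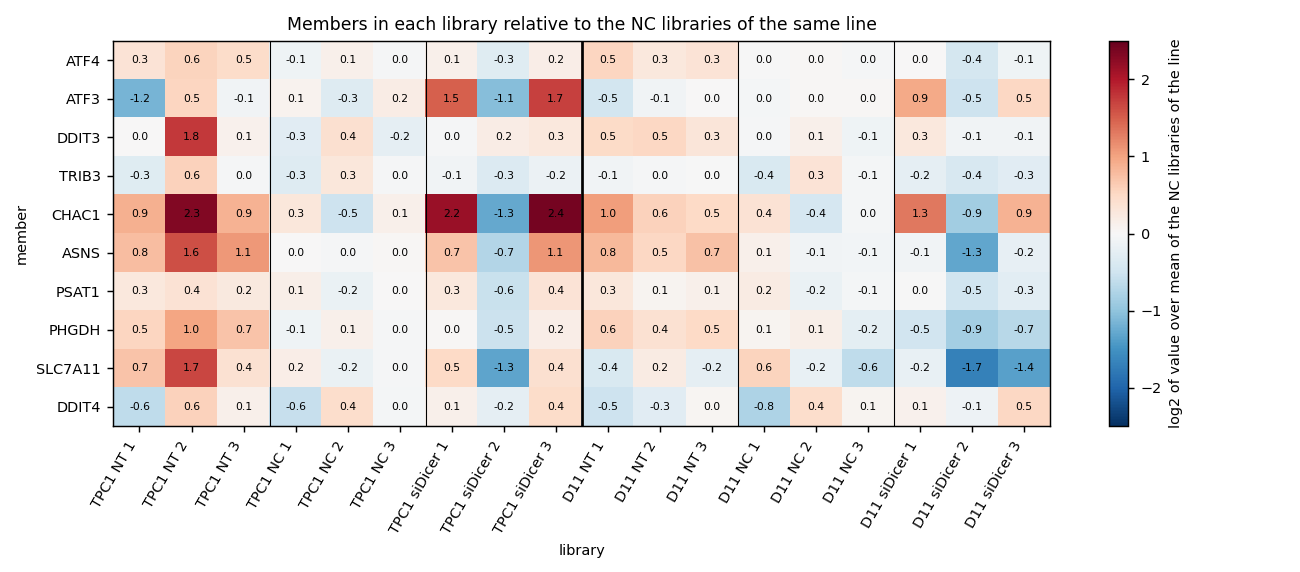
Each cell is the log2 of a member's value in 1 library over the mean of the 3 NC libraries of the same line, with members in rows and the 18 libraries in columns. The column of TPC1 NT replicate 2 is mostly red and both columns of siDicer replicate 2 are mostly blue, while CHAC1 and ATF3 are red in siDicer replicates 1 and 3 of both lines.

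The first comparison asked what the Dicer1 siRNA did to the members against the 6 control libraries of the same line. In TPC1 no member was called as changed, by limma at an adjusted p under 0.05 and at least 1.5-fold, while 3.22% of all genes tested were called higher and 4.16% lower. None had an unadjusted p under 0.05, against 5629 of 18475 genes tested. The median change of the members was -0.19 on the log2 scale, against -0.04 over all genes.

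ATF4, the regulator itself, was at 7593, 5618 and 7852 in the siDicer libraries of TPC1. It was at 8815, 10218 and 9628 in NT and at 6475, 7591 and 6825 in NC. siDicer replicates 1 and 3 lay above every NC library and below every NT library, and replicate 2 lay below all controls. The log2 change was -0.23 ± 0.16 (SE; adjusted p = 0.372).

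CHAC1, which degrades glutathione and is among the steepest ATF4 targets known, was at 777, 71 and 917 in the siDicer libraries of TPC1. Its NT values were 325, 866 and 320, and its NC values 212, 121 and 189. siDicer replicate 3 thus lay above all 6 controls, replicate 1 above 5 of them, and replicate 2 below all. The log2 change over the 3 libraries was 0.43 ± 0.77 (SE; adjusted p = 0.758). ATF3, an early stress factor that dampens or extends the response, was at 170, 28 and 197 with siDicer, against 26, 87 and 56 in NT and 63, 47 and 68 in NC. Its values split in the same way, with replicates 1 and 3 above every control library. Its log2 change was 0.84 ± 0.55 (SE; adjusted p = 0.335).

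ASNS, the enzyme that makes asparagine, was at 767, 282 and 1008 in the siDicer libraries of TPC1, at 800, 1441 and 991 in NT, and at 470, 458 and 482 in NC. It lay above every NC library in replicates 1 and 3 and below every control library in replicate 2. SLC7A11, the cystine-glutamate exchanger, was at 911, 258 and 846, against 1052, 2042 and 831 in NT and 722, 575 and 628 in NC. PHGDH, which opens serine synthesis, was at 1447, 972 and 1592, against 2063, 2812 and 2335 in NT and 1318, 1557 and 1385 in NC. No siDicer library of TPC1 reached the NT values of PHGDH. The log2 changes were -0.22 ± 0.44 for ASNS, -0.59 ± 0.45 for SLC7A11 and -0.49 ± 0.25 for PHGDH (SE; adjusted p = 0.785, 0.407 and 0.206).

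PSAT1, the next enzyme of serine synthesis, had a log2 change of -0.12 ± 0.19 in TPC1. DDIT3, which encodes the death-linked factor CHOP, had -0.16 ± 0.37, and TRIB3, a pseudokinase that restrains ATF4, had -0.22 ± 0.18. DDIT4, an inhibitor of mTORC1, had 0.14 ± 0.27.

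In D11, 3 of the 10 members were called lower with siDicer and none higher, against 6.75% of all genes called lower and 5.26% called higher. The called members were PHGDH, ASNS and SLC7A11, and 5 members had an unadjusted p under 0.05, against 35.5% of all genes. The median change of the 10 was -0.30, against -0.04 over all genes. PHGDH was at 1267, 976 and 1092 in siDicer, below every one of 2620, 2300 and 2500 in NT and 1845, 1950 and 1491 in NC. The control mean was 2118 ± 431 (SD, n = 6) and the siDicer mean 1112 ± 146 (SD, n = 3), and PHGDH fell by 0.91 ± 0.16 on the log2 scale (SE; adjusted p = 0.00241). ASNS was at 586, 253 and 537, against 1093, 891 and 1033 in NT and 685, 587 and 598 in NC. All its siDicer values lay below the controls, replicate 1 by 1 unit, and the log2 change was -0.87 ± 0.27 (SE; adjusted p = 0.0350). SLC7A11 was at 845, 296 and 373, against 740, 1104 and 827 in NT and 1423, 846 and 621 in NC. Replicate 1 lay within the control range of SLC7A11, and the log2 change was -0.97 ± 0.30 (SE; adjusted p = 0.0364). PHGDH and ASNS were thus the 2 members whose siDicer libraries all lay below the controls, as did 14.1% of all genes. In TPC1 no member did, against 9.91% of all genes.

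ATF4 in D11 was at 8141, 5961 and 7474 with siDicer, against 11689, 9727 and 10272 in NT and 8048, 8217 and 7961 in NC. Replicate 1 lay within the NC values, and the log2 change was -0.37 ± 0.14 (SE; adjusted p = 0.0711). PSAT1 had -0.34 ± 0.12 (SE; adjusted p = 0.0651). CHAC1 was at 599, 130 and 437, against 494, 359 and 336 in NT and 307, 179 and 231 in NC, with a log2 change of 0.10 ± 0.41. ATF3 was at 120, 43 and 89, against 45, 58 and 62 in NT and 60, 63 and 63 in NC, with a log2 change of 0.40 ± 0.27. As in TPC1, replicates 1 and 3 of ATF3 were above every control library, and in D11 replicate 2 was below every one.

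PHGDH stayed called in D11 with each library left out in turn, with log2 changes of -1.01 to -0.82. ASNS and SLC7A11 both lost their call when NT replicate 2, NT replicate 3, siDicer replicate 2 or siDicer replicate 3 was left out. Against NC alone PHGDH stayed called (log2 change -0.66 ± 0.13, adjusted p = 0.00916), where 4.93% of all genes were called lower, and ASNS (-0.53 ± 0.27) and SLC7A11 (-0.999 ± 0.38) were not. Against NT alone PHGDH and ASNS were called in D11, with 8.63% of genes called lower, SLC7A11 was not (-0.95 ± 0.33), and PHGDH was called in TPC1 (-0.87 ± 0.20, adjusted p = 0.0430), with 2.74% called lower.

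Leaving out siDicer replicate 2 changed which members were called. This library was singled out partly by its low values of these members, so the changes of members low in it rise without it by construction. The p-values without it are no separate support for a rise. With replicate 2 left out, ATF3 was called higher in TPC1, by 1.73 ± 0.37 on the log2 scale (SE; adjusted p = 0.0104), where 4.61% of genes were called higher. It was called higher in D11 too, by 0.82 ± 0.21 (adjusted p = 0.0219), where 4.73% were called higher, and PHGDH stayed the only member called lower there, with 7.0% of genes called lower. CHAC1 was not called, at 1.61 ± 0.56 in TPC1 (adjusted p = 0.0727) and 0.76 ± 0.31 in D11 (adjusted p = 0.114). SLC7A11 changed by -0.67 ± 0.32 and ASNS by -0.49 ± 0.24 in D11, while in TPC1 SLC7A11 changed by -0.0041 ± 0.39 and ASNS by 0.33 ± 0.41. siDicer replicates 1 and 3 were also set against NC alone, a comparison chosen after the data were seen. CHAC1 was then higher by 2.31 ± 0.23 in TPC1 (adjusted p = 0.00137) and by 1.13 ± 0.24 in D11 (adjusted p = 0.0167). ATF3 was higher by 1.63 ± 0.21 in TPC1 (adjusted p = 0.00268) and ASNS by 0.90 ± 0.13 (adjusted p = 0.00377). In D11 neither was called, with ATF3 at 0.73 ± 0.22 (adjusted p = 0.0605) and ASNS at -0.15 ± 0.13 (adjusted p = 0.488). PHGDH lost its call in D11, at -0.57 ± 0.14 (adjusted p = 0.0281), which is below 1.5-fold. In that comparison 5.02% of genes were called higher in TPC1 and 3.74% in D11. ATF4 itself changed by 0.15 ± 0.08 in TPC1 (adjusted p = 0.237) and by -0.05 ± 0.09 in D11 (adjusted p = 0.752). With no library numbered 2 in any group of TPC1, CHAC1 and ATF3 were called higher, with 6.34% of all genes. In D11 the same setting left ATF3 called higher and PHGDH lower, with 4.39% and 6.15% of all genes.

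**Figure D3:**
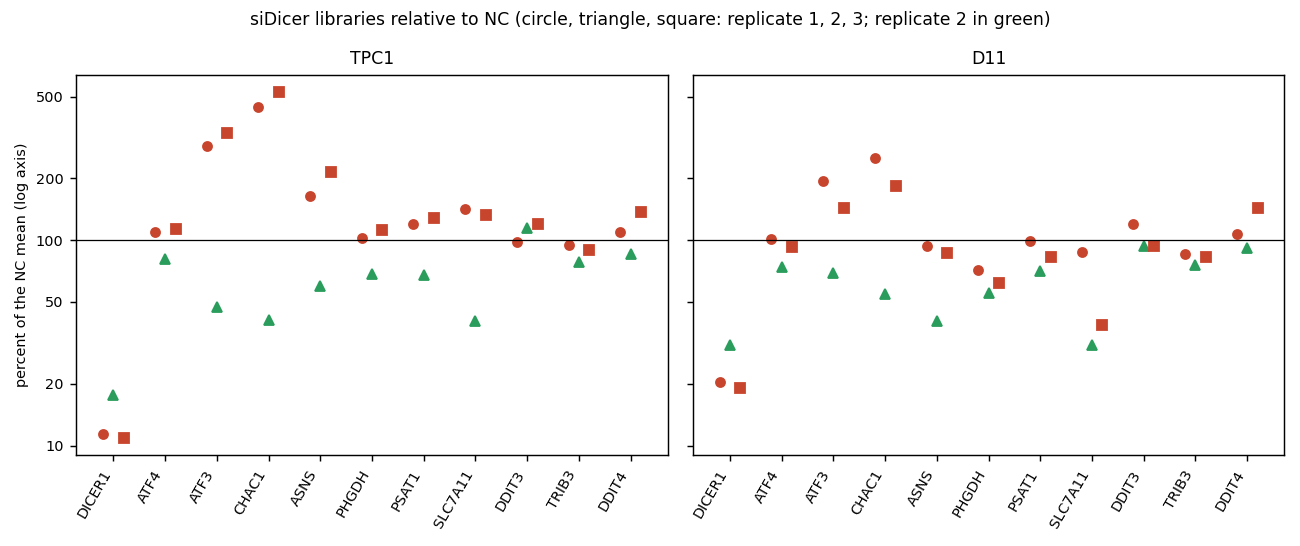
Values of DICER1 and the 10 members in the 3 siDicer libraries of each line, as percent of the mean of the NC libraries (log axis), with replicate 2 in green. Replicate 2 kept the most DICER1, at 17.5% and 30.9%, and had CHAC1 and ATF3 below 100 percent in both lines, where replicates 1 and 3 had both above it.

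The second comparison asked what transfection with the negative control siRNA did, with NC set against NT. Without a block no member was called in either line, but few genes were: 0.0333% higher and 0.0777% lower in TPC1, 0.15% higher and 0.2% lower in D11. In TPC1, 9 of 10 log2 changes were below 0 and the median was -0.56, against 0.00 over all genes, and in D11 6 of 10 were below 0 with a median of -0.28, against 0.02. An unadjusted p under 0.05 was found for 6 members in TPC1, against 11.1% of all genes, and for 5 in D11, against 13.6%.

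In TPC1 every NC library lay below every NT library for 6 members (ATF4, CHAC1, ASNS, PSAT1, PHGDH and SLC7A11), as it did for 8.33% of all genes. In D11 this held for 5 members (ATF4, DDIT3, CHAC1, ASNS and PHGDH), against 9.03% of all genes. ATF4, CHAC1, ASNS and PHGDH were in both sets. ASNS had a mean of 1077 ± 329 in NT and 470.0 ± 12.0 in NC of TPC1 (SD, n = 3 each), a log2 change of -1.15 ± 0.20 (SE; adjusted p = 0.0854). In D11 it had 1006 ± 104 and 623 ± 53.7, a change of -0.69 ± 0.13 (adjusted p = 0.0647). CHAC1 changed by -1.40 ± 0.39 in TPC1 (-0.93 ± 0.23 without NT replicate 2) and by -0.74 ± 0.22 in D11 (adjusted p = 0.235 and 0.201). PHGDH changed by -0.75 ± 0.13 and -0.50 ± 0.12 (adjusted p = 0.0877 and 0.144), and ATF4 by -0.46 ± 0.10 and -0.38 ± 0.10 (adjusted p = 0.141 and 0.159).

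SLC7A11 changed by -0.92 ± 0.29 in TPC1, by -0.55 ± 0.14 without NT replicate 2, and by 0.05 ± 0.27 in D11. DDIT3 was at 457, 1539 and 491 in NT of TPC1 and at 375, 598 and 390 in NC, so 1 NT library carried most of its -0.66 ± 0.43. In D11, at 581, 598 and 517 in NT against 411, 456 and 390 in NC, it changed by -0.43 ± 0.13. TRIB3, DDIT4 and ATF3 overlapped between NT and NC in both lines.

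With the replicate number as a block, ASNS (adjusted p = 0.00214), CHAC1 (adjusted p = 0.0349), PHGDH (adjusted p = 0.000985) and SLC7A11 (adjusted p = 0.0326) were called lower in NC of TPC1, against 1.47% of all genes. In D11 ASNS (adjusted p = 0.0141) and CHAC1 (adjusted p = 0.0274) were, against 0.667%. The labels do not say that equal numbers pair libraries. In a check of deviations from group means, 7 of 9 same-number pairs in TPC1 and 9 of 9 in D11 correlated above 0.1. Of 18 pairs with different numbers, 3 in each line did. In TPC1, ASNS alone was called lower when NT replicate 2 was left out, against 0.197% of all genes. ASNS, CHAC1 and PHGDH were called lower when no library numbered 2 was used, against 0.995% of all genes. In the latter, CHAC1 changed by -0.69 ± 0.13, ASNS by -0.90 ± 0.12 and PHGDH by -0.70 ± 0.09 (adjusted p = 0.0251, 0.00640 and 0.00552). The siDicer group had also been transfected, so its comparison with the pooled controls mixes a group that was and a group that was not.

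**Figure D4:**
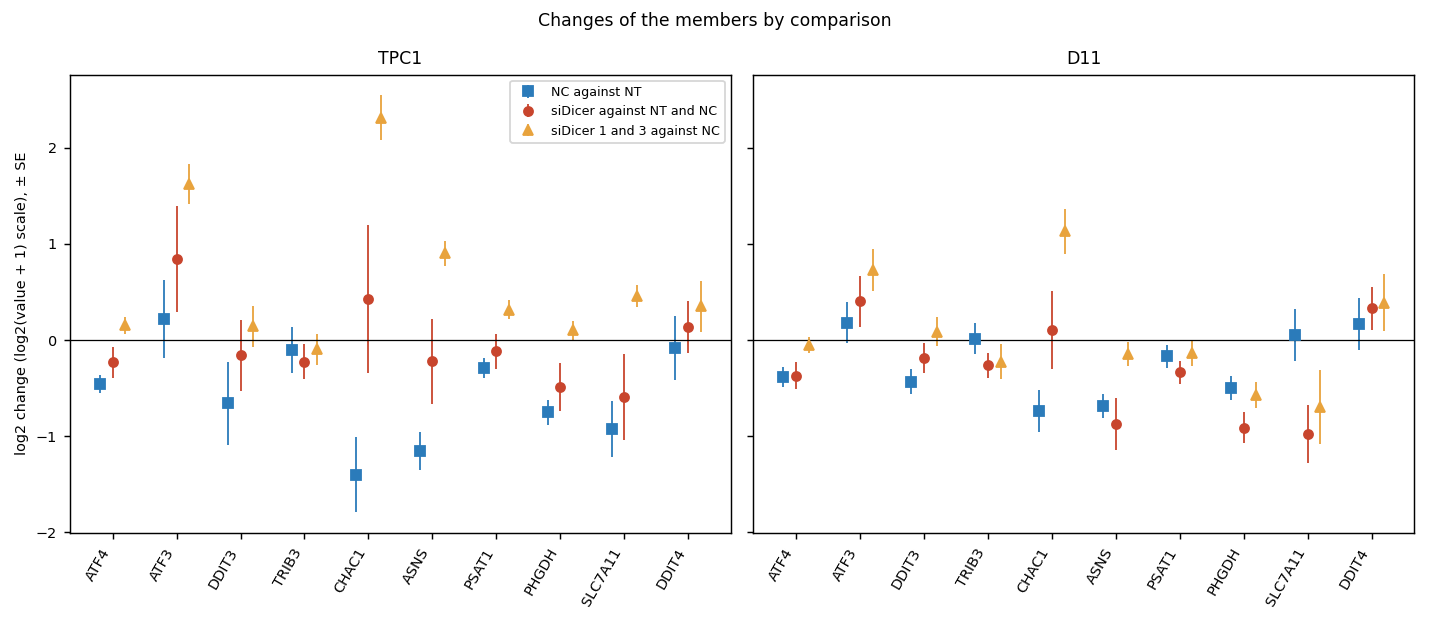
Log2 changes of the 10 members with their standard errors (vertical axis) in TPC1 (left) and D11 (right) for NC against NT, siDicer against both control groups, and siDicer replicates 1 and 3 against NC. CHAC1 and ASNS were below 0 in NC against NT in both lines, and CHAC1 reached 2.31 in TPC1 and 1.13 in D11 in siDicer replicates 1 and 3 against NC. Replicate 2 was left out there after its low values of these members were seen.

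The third comparison set the 6 control libraries of D11 against those of TPC1 and asked how the Dicer1 (+/-) clone differed from its parent line. With 1 clone this comparison cannot separate the lost allele from other features of D11. Its fit held a term for transfection (NT or NC), while the SDs over 6 libraries below pool both. No member was called, against 1.02% of all genes called in either direction. The changes ran from -0.20 for DDIT3 to 0.18 for ATF4. ATF4 was at 9319 ± 1508 in D11 and 8259 ± 1530 in TPC1 (SD, n = 6 each), with a change of 0.18 ± 0.07 (SE), an unadjusted p of 0.0167 and an adjusted p of 0.352. It was the only member with an unadjusted p under 0.05, against 9.85% of all genes. Matched by treatment, ATF4 was at 10563 ± 1013 in NT of D11 and 9554 ± 704 in NT of TPC1, and at 8075 ± 130 and 6964 ± 571 in NC (SD, n = 3 each). In NC the values of D11 all lay above those of TPC1, and in NT they overlapped.

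Whether the lines differed in their response was tested as an interaction over all 18 libraries. No gene of 19181 was called for siDicer and none for NC (0.0% each), with an unadjusted p under 0.05 for 133 and 334 genes, no member among them. The difference between the lines (D11 minus TPC1) in the siDicer change ran from -0.65 for ASNS to 0.19 for DDIT4, with standard errors of 0.23 to 0.95. For the NC change it ran from -0.03 for ATF3 to 0.97 for SLC7A11, with standard errors of 0.18 to 1.02. The calls of ASNS, PHGDH and SLC7A11 in D11 are therefore not shown to be particular to D11, and errors of this size leave room for sizeable differences.

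The rest of the pathway was followed with lists of genes. Upstream, 16 genes of the eIF2 kinases and the eIF2 cycle were tested. PPP1R15A, which encodes the stress-induced subunit of the phosphatase that reverses eIF2 phosphorylation and is itself an ATF4 target, rose in both lines. It was at 1463, 977 and 1557 with siDicer in TPC1, against 682 to 1179 in the 6 controls, and at 1582, 1222 and 1507 in D11, against 670 to 1069. The log2 changes were 0.69 ± 0.18 and 0.73 ± 0.14 (SE; adjusted p = 0.0317 and 0.00289). PPP1R15B, the constitutive counterpart, changed by -0.59 ± 0.07 in TPC1, where it was called, and by -0.56 ± 0.11 in D11, where it fell short of 1.5-fold. EIF2B2, a subunit of the exchange factor that eIF2 phosphorylation blocks, fell in both lines (-0.65 ± 0.13 and -0.80 ± 0.13). No other gene of the list was called. Without the number 2 libraries these 3 were called in both lines, and EIF2B3 was called lower in TPC1.

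Of the partner transcription factors, 9 were tested and none was called with siDicer. Without the number 2 libraries CEBPB, NUPR1 and JDP2 were called higher in TPC1 and ATF5 lower in D11. JDP2, a bZIP protein related to ATF3, fell in NC against NT in both lines. It was at 301, 335 and 334 in NT and 100, 78 and 135 in NC of TPC1, and at 423, 299 and 308 and then 140, 108 and 134 in D11, with no overlap. The changes were -1.66 ± 0.21 and -1.41 ± 0.18 (SE; adjusted p = 0.0407 and 0.0273). With siDicer JDP2 was at 650, 162 and 613 in TPC1 and at 405, 294 and 481 in D11. The pattern of replicate 2 below the others was thus shared with CHAC1 and ATF3. CEBPG, which dimerises with ATF4, changed by -0.21 ± 0.16 and -0.36 ± 0.12 with siDicer, and ATF5 by -0.43 ± 0.14 and -0.54 ± 0.13.

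Serine, glycine, one-carbon and proline synthesis was covered by 12 genes besides the members. With siDicer none was called in TPC1, where 10 were below 0 and the median was -0.20, against -0.04 over all genes. In D11 all 12 were below 0 with a median of -0.34, against -0.04 over all genes. In that line 3 fell: PYCR1, of proline synthesis (-0.64 ± 0.13), ALDH1L2, a mitochondrial folate enzyme (-0.62 ± 0.15), and CBS, of transsulfuration (-0.71 ± 0.20). Without the number 2 libraries only PYCR1 was called there. In NC against NT 11 of the 12 were below 0 in each line. The list median was -0.40 in TPC1 and -0.21 in D11, against 0.00 and 0.02 over all genes. PCK2, mitochondrial phosphoenolpyruvate carboxykinase, was called lower in D11. It was singled out after its values were seen, and its log2 change was -0.82 in D11 and -1.07 in TPC1, where it was not called. Without the number 2 libraries this turned around: PCK2 and SHMT2 were called lower in TPC1, and no gene of the list was called in D11.

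Amino acid transporters gave the opposite direction for a pair of genes. SLC7A5 and SLC3A2, the chains of the LAT1 exchanger for large neutral amino acids, rose in both lines among 9 transporters tested. SLC7A5 was at 45809, 23189 and 52683 with siDicer in TPC1, against 14528 to 26368 in the controls, and at 27539, 32991 and 44133 in D11, against 16173 to 22903. Its log2 changes were 0.83 ± 0.25 and 0.78 ± 0.16 (SE; adjusted p = 0.0471 and 0.00422), and those of SLC3A2 were 0.78 ± 0.23 and 0.69 ± 0.16. In TPC1 replicate 2 of SLC7A5 lay within the controls, while in D11 all 3 libraries exceeded them. SLC1A5, a glutamine transporter, changed by -0.06 ± 0.20 and -0.33 ± 0.10. None of the 20 cytosolic tRNA synthetases was called, though 16 of 20 were below 0 with siDicer in each line. Their median was -0.15 in TPC1 and -0.23 in D11, against -0.04 over all genes in each. EPRS (-0.44 ± 0.15 and -0.50 ± 0.09), FARSB (-0.35 ± 0.13 and -0.49 ± 0.10) and FARSA (-0.18 ± 0.15 and -0.46 ± 0.11) were below 1.5-fold. FARSB and VARS were called lower in D11 without the number 2 libraries.

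Among 12 tested of 13 other stress-induced targets of ATF4, SESN2 rose and SQSTM1 fell in both lines. SESN2, which restrains mTORC1 when leucine is short, was at 2918, 1243 and 2507 with siDicer in TPC1, against 813 to 1860 in the controls, and at 2856, 1835 and 2346 in D11, against 881 to 1364. Its log2 changes were 0.98 ± 0.29 and 1.02 ± 0.15 (SE; adjusted p = 0.0443 and 0.000915). SQSTM1, the autophagy receptor p62, changed by -1.29 ± 0.18 and -1.28 ± 0.19. TXNIP, an inhibitor of thioredoxin, was called higher in D11 (0.90 ± 0.18) and not in TPC1 (1.57 ± 0.86), where NT replicate 2 was at 95. Without the number 2 libraries it was called in both lines. The list median was 0.33 in TPC1 and 0.41 in D11, against -0.04 over all genes in each. Without the number 2 libraries 6 of its genes were called higher in TPC1 instead of 1. Over all genes the share called higher there went from 3.22% to 6.34%.

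The neighbouring arms served as contrast. Of 18 endoplasmic reticulum chaperones and genes of the IRE1 and ATF6 arms, none was called in TPC1, and DNAJB9 was called higher there without the number 2 libraries. In D11 DNAJB9, a target of the IRE1 arm, rose by 0.68 ± 0.18 and SDF2L1 fell by 0.73 on the log2 scale. PDIA4 changed by -0.51 ± 0.13 in TPC1 and -0.53 ± 0.09 in D11. Of 7 NRF2 targets, HMOX1, haem oxygenase, rose in both lines (0.76 ± 0.16 and 0.79 ± 0.20), while the other 6 were below 0 in both. SRXN1, which repairs oxidised peroxiredoxins, had -0.39 ± 0.09 and -0.41 ± 0.13.

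**Figure D5:**
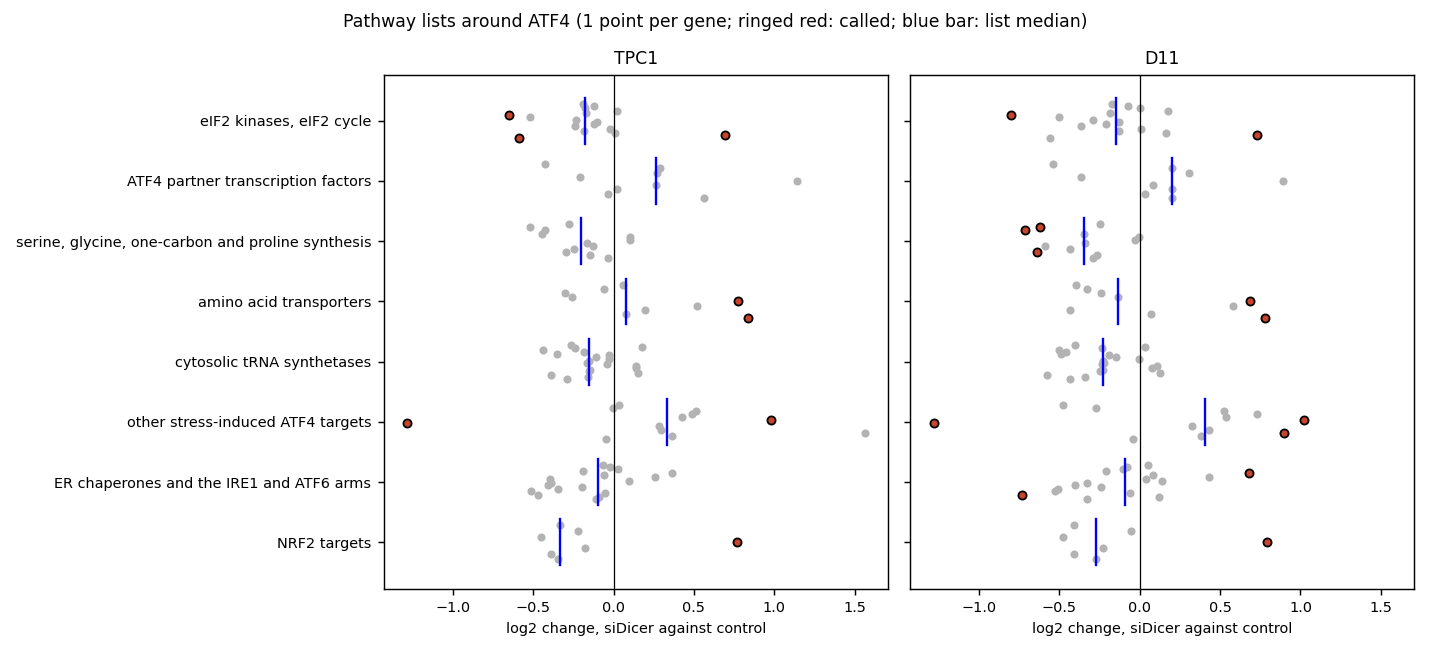
Log2 change with siDicer against the 6 control libraries (horizontal axis) for every tested gene of 8 lists around ATF4 (vertical axis), in TPC1 (left) and D11 (right), with called genes in red with a dark ring and list medians as blue bars. PPP1R15A, SLC7A5, SLC3A2, SESN2 and HMOX1 are called on the right of 0 in both lines, and EIF2B2 and SQSTM1 on the left.

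Across the 18 libraries the members did not move as 1 block. The Pearson correlation of log2 values with ATF4 was 0.92 for PHGDH, 0.90 for ASNS, 0.79 for PSAT1, 0.68 for SLC7A11, 0.59 for CHAC1, 0.50 for DDIT3, 0.43 for TRIB3 and 0.04 for DDIT4. These are descriptions over 18 libraries of 6 groups, which share lines, treatments and the scaling to a common total. Outside the members, and among 12508 genes with a mean of at least 100, the genes closest to ATF4 were SARS (0.91), AC079781.5 (0.90), GARS (0.90), CEBPG (0.88) and RSL24D1 (0.88). The closest to ASNS were AC079781.5, GARS (0.97), MARS (0.96), SARS (0.95) and CEBPG (0.93). SARS, GARS and MARS encode cytosolic tRNA synthetases. The closest to DDIT3 were TM4SF19-TCTEX1D2 (0.91), TM4SF19 (0.91), TM4SF19-AS1 (0.91), XBP1 (0.90) and GOLGA5 (0.89). XBP1 encodes the transcription factor of the IRE1 arm. DDIT3 was at 1539 in TPC1 NT replicate 2 and at 375 to 598 in all other libraries. That 1 library therefore weighs heavily on the correlations of DDIT3, which were not computed without it.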

How the data were processed

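RNA of TPC1 and D11 cells was sequenced by the authors from stranded mRNA libraries, aligned to GRCh38 with STAR 2.5.3a and counted with HTSeq 0.9.1 on Ensembl release 90 genes. Whether HTSeq used strand is not given in the sources used here. The deposited values are a score: the authors scaled each library to 20 M aligned reads and rounded up, so the column totals are 20010707 to 20018484. Depth was recovered from the spacing of low values. In the 16 libraries where 1 read was worth more than 1 unit, 99.78 to 99.95% of values were whole reads, and in the other 2 the step could not be read that way and was fitted.

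Groups were taken from the sample descriptions, which the table's columns repeat. The titles name another group for 12 of 18 libraries, and groups from the titles were tried as an alternative. Replicates differed by more than sampling noise, and nothing in the labels says whether they were separate cultures, so p-values measure the spread between these libraries.

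Because the values are not counts, the count test of the study's methods was replaced by limma 3.58.1 (R 4.3.3) with a trend on log2(value + 1). Genes at 10 units or more in at least 3 libraries of a fit were tested, with Benjamini-Hochberg adjustment over all of them, and called at an adjusted p under 0.05 and at least 1.5-fold. Fold changes are on the log2(value + 1) scale, which understates low genes. The fit was tested on simulated data. The 10 members and all lists were chosen with earlier results of these data known. From each list the 3 genes with the lowest adjusted p in D11 siDicer against control were named, except 1 that is not reported here, and PCK2 was added. Same-number libraries were checked for joint deviation: in D11 all 9 pairs correlated above 0.1 (0.106 to 0.473), in TPC1 7 of 9 (0.0861 to 0.509). With genes of a mean of at least 100 the numbers were 8 and 9. Of 18 pairs with different numbers, 3 in each line were above 0.1, and 4 in each line with genes of that mean. The number of pairs above 0.1 shifted with the filter and the labels name no pairing, so fits with and without the block were given. Gene positions and exon lengths are from GENCODE release 44, promoter windows from RefSeq. Other normalisations, filters, pseudocounts (10 and 0.1), limma-voom on recovered reads, single control groups and left-out libraries were tried.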

Additional observations from a re-analysis of the deposited data

Results flagged for a closer look

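In 4 of the 20 sets of 6 control libraries (10 members in 2 lines), 1 library lay far from the others, its gap to the next being a large share of the whole range. About 1 set in 20 is expected by chance. DDIT3 in TPC1 was at 1539 in NT replicate 2 against 375 to 598 in the others (gap 0.808 of the range). CHAC1 in the same library was at 866 (0.726) and SLC7A11 at 2042 (0.675). The fourth was ATF3 in D11, at 45 in NT replicate 1 against 58 to 63 (0.722). These sets pool NT and NC.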

How the results depend on the processing

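Counts of called members. In siDicer against control, TPC1, the number called lower was 1 with NT alone as control, against 2.74% of all genes. The number called higher was 2 without any number 2 library, against 6.34% of all genes. It was 3 with siDicer replicate 2 left out and NC alone as control, against 5.02%. With each library left out in turn it was 0 to 1, against 0.866 to 4.61%. In D11 the number called lower was 0 with groups from the titles. That setting called 0 of all 18413 genes tested, so its 0 is no result about the members. The number was 1 with NC alone (4.93% of all genes) and 1 without any number 2 library (6.15%). It was 0 with siDicer replicate 2 left out and NC alone (5.51%), and 1 to 3 with each library left out (4.27 to 7.44%). The number called higher in D11 was 1 in both settings without number 2 libraries (4.39% and 3.74% of all genes). It was 0 to 1 with each library left out (3.23 to 6.06%). For NC against NT the replicate block gave 4 members called lower in TPC1, with 1.47% of all genes. They were ASNS, CHAC1, PHGDH and SLC7A11. In D11 it gave 2, with 0.667% of all genes. No other call of a member changed under the replicate block. NC against NT in TPC1 gave 3 called lower without number 2 libraries (0.995% of all genes). It gave 0 to 1 with each library left out (0 to 0.197%). The settings without number 2 libraries were chosen after seeing the data. The titles put libraries with and without the siRNA in 1 group. Other normalisation, filter, pseudocounts and voom changed none of these counts by over 1.5 times.

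Changes that turned sign, all on the log2 scale. For siDicer in TPC1, NC alone gave 0.17 for DDIT3, 0.36 for ASNS and 0.026 for PSAT1, and NT alone gave -0.27 for CHAC1. Without number 2 libraries DDIT3 was 0.20, TRIB3 0.057, ASNS 0.43, PSAT1 0.15 and SLC7A11 0.15. With siDicer replicate 2 left out and NC alone, ATF4 was 0.15, DDIT3 0.14, ASNS 0.90, PSAT1 0.31, PHGDH 0.10 and SLC7A11 0.46. Leaving out each library gave -0.22 to 1.61 for CHAC1, -0.27 to 0.13 for DDIT3, -0.59 to 0.33 for ASNS, -0.28 to 0.17 for PSAT1 and -0.028 to 0.31 for DDIT4. For siDicer in D11, DDIT3 was 0.028 with NC alone and 0.085 with replicate 2 also left out, CHAC1 was -0.27 with NT alone, and -0.34 to 0.76 with each library left out. For NC against NT in TPC1 the same gave -0.25 to 0.60 for ATF3, -0.30 to 0.15 for TRIB3 and -0.42 to 0.19 for DDIT4. In D11 it gave -0.17 to 0.19 for TRIB3, -0.28 to 0.32 for SLC7A11 and -0.093 to 0.51 for DDIT4. TRIB3 was there -0.0026 with median-of-ratios scaling and -0.17 without number 2 libraries, where DDIT4 was -0.11. For D11 against TPC1 it gave -0.11 to 0.27 for ATF3, -0.32 to 0.064 for DDIT3, -0.20 to 0.0053 for TRIB3, -0.27 to 0.0045 for DDIT4, -0.012 to 0.38 for CHAC1 and -0.18 to 0.24 for SLC7A11. Beyond the settings with fewer or other libraries, the cause was not tested.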

Other observations

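TPC1 NT replicate 2, the library with the highest DDIT3, also stood apart for genes of the other lists. TXNIP was at 95 there and at 1594 to 2563 in the other 5 TPC1 control libraries. DNAJB9 was at 524, against 153 to 240, and CBS at 493, against 157 to 242.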
